A study of Mus musculus with 4 samples.

Results

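The 300 nuclear regions with the strongest ATAC-seq signal in mouse muscle stem cells were examined, out of 35010 nuclear regions in a table of 35019 (9 regions of the mitochondrial genome were left out). A region was a member if the mean of its values in the 4 libraries was among the 300 highest, so members were chosen by their level, which is given as a description and not tested. The cells were quiescent satellite cells, the resting stem cells of skeletal muscle, sorted by flow cytometry and treated directly with Tn5 transposase, which inserts sequencing adapters into accessible DNA. One group came from mdx mice, which carry a mutation of the dystrophin gene and model Duchenne muscular dystrophy, and the other from wild type mice. The series' design text names 3 mice per condition, and each group had 2 libraries here, numbered 1 and 2. The labels give no further allele or treatment, and nothing in them says that the libraries of a group came from separate animals, so the p-values below reflect only how far these libraries differ, and that difference may be technical. Values are scaled reads per region, coordinates are mm10 as the table gives them, and log2 ratios are those of mdx to wild type after adding 1 to each value.

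Strongly accessible regions of a mammalian genome are mostly promoters, the DNA next to the start of a gene where transcription factors and RNA polymerase displace nucleosomes. Promoters rich in CpG dinucleotides tend to stay open in most cell types, so a promoter can be wide open in a resting cell while its gene is transcribed little or not at all. Sequences that occur in many near-identical copies are a different case: reads from several copies can be assigned to the few copies that the genome assembly holds, and a value there is not that of a single locus.

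The sequences of some of the strongest promoters show where the motifs counted below lie, and are printed as the 250 bases upstream of the RefSeq gene start (GRCm38.p6, 5′ to 3′ on the gene's strand). Of the 270 member promoters up to 4 kb wide, 211 had a RefSeq start with a sequence inside the region. Pdk4, Jun and Gsk3b are shown because they are among the promoters with the most signal and carry the CCAAT box, the letters that the factor NF-Y binds. They are poorer in G and C (58.8%, 61.2% and 62.0%) than the median member promoter, and none of the 3 holds the GC box. Their positions are chr6:5496279-5496528 (minus strand), chr4:95052223-95052472 (minus strand) and chr16:38088751-38089000 (plus strand). Capitals mark CCAAT, or ATTGG where it lies on the other strand. In Jun they also mark TGACATCA, a site of the AP-1 type that was searched for after its sequence had been seen, and in Gsk3b they mark TATAAA on the other strand.
Pdk4: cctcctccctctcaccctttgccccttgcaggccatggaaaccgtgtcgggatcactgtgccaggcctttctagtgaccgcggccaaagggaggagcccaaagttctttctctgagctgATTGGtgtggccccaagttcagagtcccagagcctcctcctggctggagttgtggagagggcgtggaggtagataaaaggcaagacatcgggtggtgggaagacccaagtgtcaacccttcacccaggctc
Jun: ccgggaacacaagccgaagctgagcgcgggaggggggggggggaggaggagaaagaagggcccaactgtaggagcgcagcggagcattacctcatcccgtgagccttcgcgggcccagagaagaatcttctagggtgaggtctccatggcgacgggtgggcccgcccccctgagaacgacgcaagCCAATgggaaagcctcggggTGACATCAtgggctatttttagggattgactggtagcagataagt
Gsk3b: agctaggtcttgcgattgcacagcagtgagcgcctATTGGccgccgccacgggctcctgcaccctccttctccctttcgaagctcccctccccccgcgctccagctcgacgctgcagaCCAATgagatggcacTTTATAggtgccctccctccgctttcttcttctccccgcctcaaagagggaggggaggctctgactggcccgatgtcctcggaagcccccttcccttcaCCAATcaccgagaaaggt

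CCAAT, on either strand, occurred in 56.9% of the 211 member promoters. It occurred in 36.8% of 8009 other regions of the table with a RefSeq start and in 33.8% of 32851 RefSeq starts in all. TATAAA showed the opposite order, with 3.32%, 5.32% and 12.4%. TGACATCA was found in 3.32%, 1.46% and 2.93%. The member promoters were also richer in G and C (median 66.8%, against 61.6% and 52.4%) and in CpG (median observed over expected ratio 0.82, against 0.76 and 0.37). These shares therefore describe windows of unequal base composition, and a match is a run of letters, not a bound site.

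Sp3, Creb1 and Ube2n are shown as promoters that were lower in mdx, and Rel and Herpud2 as promoters of similar level that did not pass the test. Rel and Herpud2 were nearly even between the groups, unlike the median member promoter up to 4 kb (log2 ratio -0.31). These windows are examples picked with the values known, and they do not compare motifs between the 2 kinds. They lie at chr2:72980447-72980696 (minus strand), chr1:64532554-64532803 (plus strand), chr10:95514912-95515161 (plus strand), chr11:23770970-23771219 (minus strand) and chr9:25151782-25152031 (minus strand). Capitals mark the GC box GGGGCGGGG, which factors of the Sp and Klf families bind, the ETS site CCGGAAGT, and CCAAT, on either strand. No 2 of the marked motifs overlap in these windows.
Sp3: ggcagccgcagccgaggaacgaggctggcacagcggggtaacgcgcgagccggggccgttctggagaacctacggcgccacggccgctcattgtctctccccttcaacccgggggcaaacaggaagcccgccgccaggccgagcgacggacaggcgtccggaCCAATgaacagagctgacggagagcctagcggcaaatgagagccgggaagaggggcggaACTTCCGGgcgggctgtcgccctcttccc
Creb1: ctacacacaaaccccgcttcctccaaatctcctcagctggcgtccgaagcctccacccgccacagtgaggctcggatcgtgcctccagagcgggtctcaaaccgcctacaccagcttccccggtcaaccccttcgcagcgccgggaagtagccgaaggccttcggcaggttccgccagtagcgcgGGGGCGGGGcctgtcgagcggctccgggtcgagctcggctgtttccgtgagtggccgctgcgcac
Ube2n: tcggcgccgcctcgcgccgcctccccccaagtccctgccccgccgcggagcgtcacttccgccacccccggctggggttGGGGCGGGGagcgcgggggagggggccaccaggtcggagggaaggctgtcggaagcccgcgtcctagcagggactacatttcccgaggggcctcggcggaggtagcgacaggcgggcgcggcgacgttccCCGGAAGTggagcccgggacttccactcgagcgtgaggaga
Rel: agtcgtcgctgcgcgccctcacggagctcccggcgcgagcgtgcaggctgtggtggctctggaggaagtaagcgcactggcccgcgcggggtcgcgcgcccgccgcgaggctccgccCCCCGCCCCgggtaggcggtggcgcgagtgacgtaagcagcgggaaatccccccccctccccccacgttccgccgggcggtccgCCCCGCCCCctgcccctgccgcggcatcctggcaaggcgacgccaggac
Herpud2: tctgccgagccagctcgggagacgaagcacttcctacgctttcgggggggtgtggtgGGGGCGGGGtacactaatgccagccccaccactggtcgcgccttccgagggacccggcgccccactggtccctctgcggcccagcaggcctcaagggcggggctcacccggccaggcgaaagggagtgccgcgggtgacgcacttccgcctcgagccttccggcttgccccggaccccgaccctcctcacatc

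The GC box was present in 4 of these 5 windows, in promoters of either kind. It occurred in 36.5% of the 211 member promoters, in 22.9% of the other regions with a start and in 10.4% of all starts. Among the 18 member promoters with a sequence that fell in mdx it occurred in 38.9% and CCAAT in 44.4%, at a median GC of 71.6%, against 66.8% for the 211. The ETS site was in 2 of the 18, Sp3 and Ube2n, in 4.74% of the 211 and in 6.16% of the other regions.

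The region linked to Gm21738, a predicted gene of unknown function, stood far above all other members. It spans chr14:19415725-19419654 (3929 bp), overlaps no RefSeq gene and lies 10633 bp from the nearest, Gm9637. Its mean value was 10939.5, 3.98 times that of the region in second place. That region, the promoter of Dipk2a by RefSeq position (chr9:94537322-94538944), had a mean of 2751.0, with no gene name in the deposited annotation. Below it the levels fell gradually to 835.0, and the median member held 993.6, against 50.0 over all nuclear regions.

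The cut at 300 fell within a smooth run of values. Just inside were the promoter of Nek1, a kinase, with 828 and 734 in mdx and 926 and 853 in wild type, and that of Ivns1abp, an actin-binding protein, with 692, 798, 1062 and 788. Just outside were the promoter of Glcci1, with 651, 737, 1112 and 840, and a region near Gm39032, with 791, 837, 927 and 783. Ivns1abp and Glcci1 tied at a mean of 835.0, and the order of the file decided between them.

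**Figure D1:**
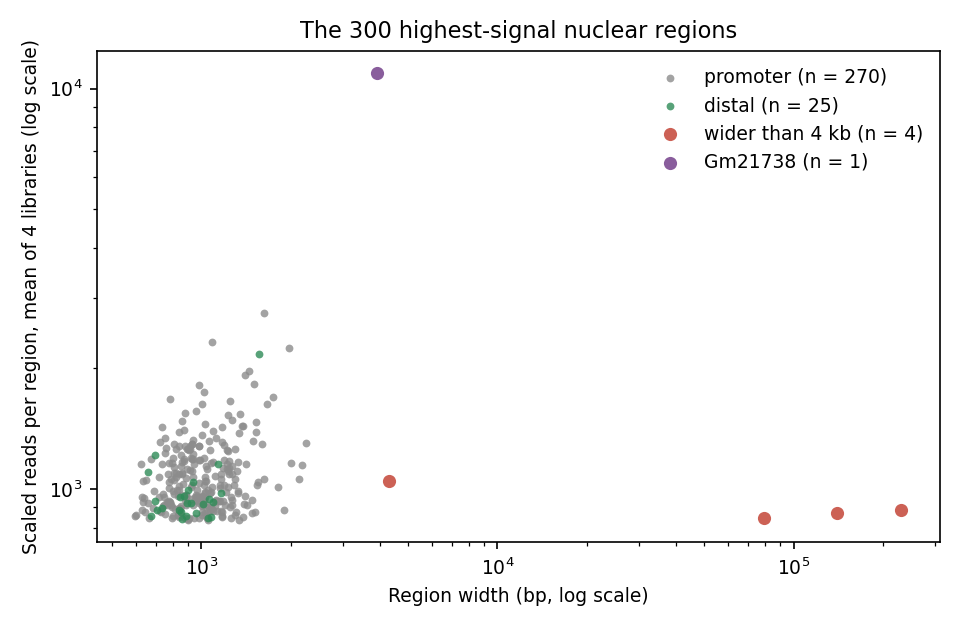
Mean scaled reads of the 4 libraries (vertical log axis) against region width in bp (horizontal log axis) for the 300 members, one point per region, coloured by class. Gm21738 lies alone at 10939.5, and 4 regions wider than 4 kb lie to the right of all others at means from 845.0 to 1048.5.

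The members were sorted into a repeat-like class, gene promoters and distal regions. A member was repeat-like if its linked gene was on a list of 27 multi-copy or repeat-linked genes, or if its value per kb was over 5 times the member median of 1058.0. No member passed the second condition, since even Gm21738, at 2784.3 per kb, reached only 2.63 times the median. Gm21738 was thus the only repeat-like member, and it was in that class through the list. Promoters, which reach within 1 kb of the start of the linked gene, numbered 273, or 91% of members, against 32.8% of nuclear regions. The other 26 were distal.

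Width picked out a further kind of region, a grouping made after the values had been seen. The 4 members wider than 4 kb were a region of 4318 bp at chr11:3100427-3104745 with no gene, and regions of 231458, 140500 and 79655 bp. The longest covers genes of the Klra cluster, which encodes receptors of natural killer cells, the next covers Cyp3a41a, a cytochrome P450 gene, and the last Col19a1, a collagen gene. The last 3 count as promoters by the window rule, but held 3.82, 6.20 and 10.6 scaled reads per kb, far below the member median of 1058.0. The other 270 promoters were 599 to 2264 bp wide.

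Gm21738 rose in mdx. Its mdx libraries held 14446 and 15135 scaled reads and its wild type libraries 6954 and 7223. The libraries of a group lay close together and the groups were far apart. The difference was 2.09-fold, a log2 ratio of 1.06 with SE 0.09 (limma, adjusted p = 0.000208). As a share of all nuclear signal the region took 0.396% and 0.419% in mdx and 0.179% and 0.198% in wild type. Which copies of the sequence these reads came from was not tested.

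The region on chromosome 11 between genes behaved alike in size. It held 1347 and 1468 in mdx and 649 and 730 in wild type, with no overlap. This was 2.04-fold higher, a log2 ratio of 1.03 with SE 0.14 (limma, adjusted p = 0.00528). Its nearest RefSeq gene, the pseudogene Pisd-ps1, is 19257 bp away. Gm21738 and this region were the only members that passed as higher.

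With the deposited scaling none of the other 3 wide members passed. The Klra4 region held 933 and 1148 in mdx and 680 and 777 in wild type, which do not overlap (log2 ratio 0.51, limma, adjusted p = 0.0822). The Cyp3a41a region held 695 and 1450 in mdx and 610 and 729 in wild type, so the groups overlap and 1 mdx library carries the difference. The Col19a1 region held 972 and 891 against 707 and 810 (log2 ratio 0.30, limma, adjusted p = 0.253). After cyclic loess all 3 passed as higher, at 0.81, 0.88 and 0.60 (limma, adjusted p = 0.00188, 0.0149 and 0.0166). All 4 wide members had positive log2 ratios, and so did 46 of the 53 tested regions of this width outside the 300 (86.8%, against 49.4% of all tested regions). Of the 53, 4 passed as higher (7.55%, against 3.3%) and 0 as lower.

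**Figure D2:**
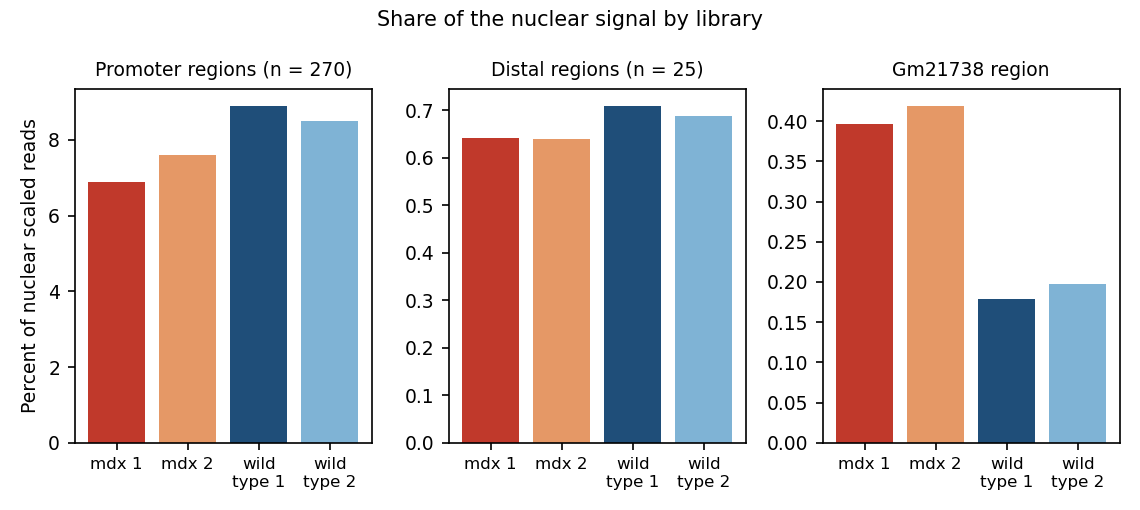
Percent of each library's nuclear scaled reads (vertical axes, starting at 0, with different scales) in the 270 member promoters up to 4 kb, the 25 distal members up to 4 kb and the Gm21738 region, one bar per library. The promoter share is lower and the Gm21738 share higher in both mdx libraries than in both wild type libraries.

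Promoters went the other way from these regions. The 270 member promoters up to 4 kb held 6.89% and 7.59% of the nuclear signal in mdx and 8.90% and 8.51% in wild type. All 300 members together held 8.04% and 8.79% in mdx and 9.86% and 9.48% in wild type. With 2 libraries against 2, the smallest two-sided p of an exact permutation test is 0.33, so these shares were not tested.

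Of the 300 members, all of which passed the filter on low values, 24 fell in mdx and 2 rose (limma, adjusted p under 0.05). This was 8.67% of members, against 4.18% of all 33161 tested regions, with 8% of members lower, against 0.881% of all tested regions and 1.73% of all tested promoters, and 0.667% higher, against 3.3%. Of the 24, 23 were promoters. The next 300 regions by level had 16 lower (5.33%) and 2 higher (0.667%), and the difference between the first and the next 300 was not tested.

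The shift was shared by most members rather than carried by the 24. Both mdx libraries lay below both wild type libraries in 233 members (77.7%, against 25.9% of all tested regions and 43.5% of tested promoters), and above them in 14 (4.67%, against 26.8%). The median log2 ratio of the 270 promoters was -0.31, with quartiles at -0.43 and -0.19. It was -0.25 over all tested promoters and 0.19 over all tested distal regions. The median was -0.35 in the first 100 by rank, -0.30 in the next 100 and -0.27 in the last 100. The 300 regions that follow the members in level were close to them, with a median of -0.31 in their promoters. Both mdx libraries lay below both wild type libraries in 215 of those regions (71.7%), so the shift was not particular to the members.

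**Figure D3:**
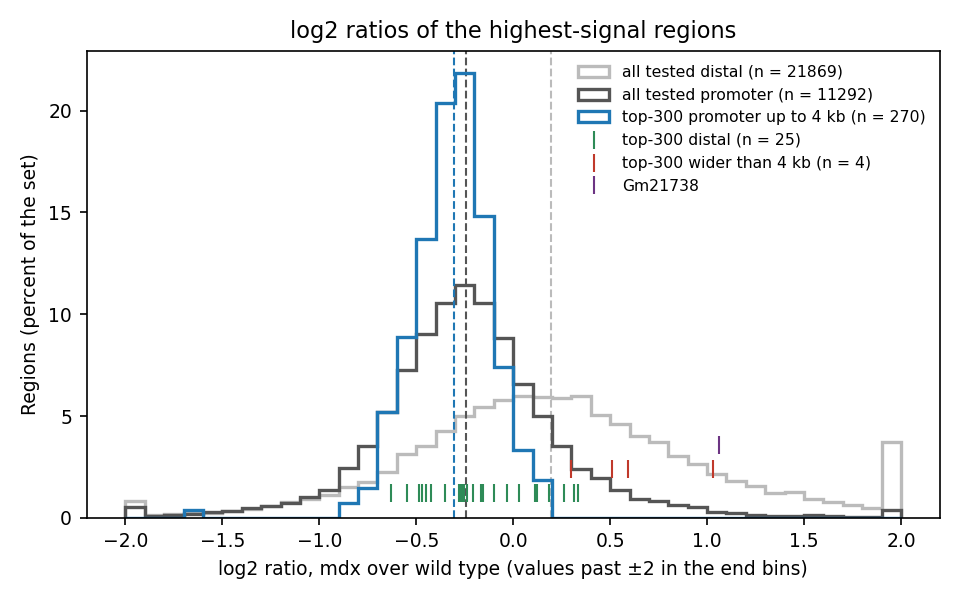
Share of regions (vertical axis, percent of each set) against the log2 ratio of mdx to wild type (horizontal axis) for the 270 member promoters up to 4 kb, all tested promoters and all tested distal regions. Dashed lines mark medians of -0.31, -0.25 and 0.19. Ticks, whose height has no meaning, show the distal members, the 4 wide members and Gm21738.

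The split between lower and higher members depended on the scaling. It was 24 lower and 2 higher with the deposited scaling and 36 and 3 with scaling by nuclear totals. It was 16 and 4 when the medians of all promoters were set equal between libraries, and 147 and 2 when those of all distal regions were. Over all 33161 tested regions these 4 settings gave, in the same order, 292 lower and 1095 higher, 414 and 1633, 159 and 1821, and 3465 and 1222. After cyclic loess, which removes any trend of the difference with level and so also a shift shared by strong regions, 5 members were lower and 13 higher, and the median of the member promoters was 0.02. Over all tested regions cyclic loess gave 541 lower and 1704 higher, and whether members differed from all regions there was not tested. The 5 lower members were Klf10, Sp3, Jkamp, Picalm and 2410080I02Rik. These 5 also passed with no filter on low values, with Ube2n, Larp1b, Acvr2a and Pnrc1, while the other 15 of the 24 did not (limma, adjusted p from 0.0513 to 0.0703). With promoter medians set equal, Atp2b1, Suco, Fzd4, Creb1, Tmem65, Eea1, Ppp2r5a and Trib1 no longer passed. Gm21738 and the chromosome 11 region were higher in each of these scalings.

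Libraries also differed along the same line within a group. Wild type replicate 1 was the highest library in 235 members and mdx replicate 1 the lowest in 219. The median log2 difference over the member promoters was 0.15 between wild type replicates 1 and 2 and -0.13 between mdx replicates 1 and 2. Over the whole table, promoters took 52.8% and 57.2% of the nuclear signal in mdx and 64.1% and 61.1% in wild type, in the same order of libraries. Mitochondrial regions took 17.7% and 13.7% of all signal in mdx and 14% and 9.31% in wild type. The part of these shares in the fall of single promoters was not tested beyond the scalings above, and in sorted bulk cells a change in all cells and a change in the mix of cells cannot be told apart.

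Genes of transcription factors were the largest of the groups formed by role, a sorting made after the names had been seen. Of 30 such members 5 fell (16.7%, against 8% of all members), 0 rose and 26 had both mdx libraries below both wild type libraries (86.7%, against 77.7% of all members). No difference between role groups was tested, and each holds too few members to read more than its count. Klf10, a zinc finger repressor induced by TGF-beta, had the lowest fold change among members that passed. Its promoter (chr15:38298941-38299773) held 589 and 774 in mdx and 1325 and 1157 in wild type, with a wide gap between the groups. This was 1.83-fold lower, a log2 ratio of -0.87 with SE 0.16 (limma, adjusted p = 0.0163).

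Sp3, a factor that binds GC boxes such as those printed above, followed. Its region (chr2:72978822-72980958) held 691 and 838 in mdx and 1474 and 1234 in wild type, a log2 ratio of -0.82 with SE 0.15 (limma, adjusted p = 0.0163). The related Sp4 stood higher in the list, at 1577 and 1753 against 2255 and 2134, and did not pass (log2 ratio -0.40, limma, adjusted p = 0.0806). The Klf and Sp families, gathered after the names had been seen, had 7 members among 18 genes with a linked region. Of all named genes 2.53% were linked to a member, and the difference was not tested. Of the 7, 2 fell, Klf10 and Sp3, where 8% of all members did. Klf3 (-0.62), Klf7 (-0.44), Klf13 (-0.41) and Klf6 (-0.40) had negative log2 ratios and did not pass.

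Jun encodes a subunit of AP-1, the factor of the early response to stress and mitogens, and its region (chr4:95051472-95053455) ranked 4 in level. It held 1689 and 1932 in mdx and 2912 and 2442 in wild type, lower in both mdx libraries (log2 ratio -0.56, SE 0.13, limma, adjusted p = 0.0356). Jun did not pass after cyclic loess (-0.14) or with no filter on low values (-0.56). From a list of 48 AP-1 and immediate early genes, 43 had a linked region and 6 were members, where 2.53% of all named genes were (not tested). Of these 6, Jun and Klf10 fell, where 8% of all members did, and 0 rose. The others were Btg1, an antiproliferative gene (985 and 1188 against 1564 and 1375), Egr1, an early growth response factor (879 and 834 against 1137 and 1179), Fosl2, a partner of Jun (679 and 844 against 1052 and 1027), and Klf6 (941 and 906 against 1311 and 1126). In these 4 both mdx libraries lay below both wild type libraries, as in 77.7% of all members. None passed (limma, adjusted p = 0.0973, 0.0863, 0.102 and 0.121).

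Creb1, which activates genes in response to cyclic AMP, and Zbtb18, a zinc finger repressor, were the other factors that fell. Creb1 held 685 and 796 in mdx and 1171 and 1078 in wild type (log2 ratio -0.60, limma, adjusted p = 0.0397). Zbtb18 held 825 and 985 against 1517 and 1281 (-0.63, limma, adjusted p = 0.0377). The region of Zbtb18 is distal by the rule, since the deposited start lies farther off, but holds a RefSeq start of the gene. In 4 of the 30 the groups overlapped, Rel and Crem among them. The promoter of Rel, a subunit of NF-kappaB, held 923 and 946 in mdx and 900 and 978 in wild type (log2 ratio -0.01, SE 0.14). That of Crem, a relative of Creb1, held 1182 and 1283 against 1245 and 1321 (-0.06, SE 0.13).

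**Figure D4:**
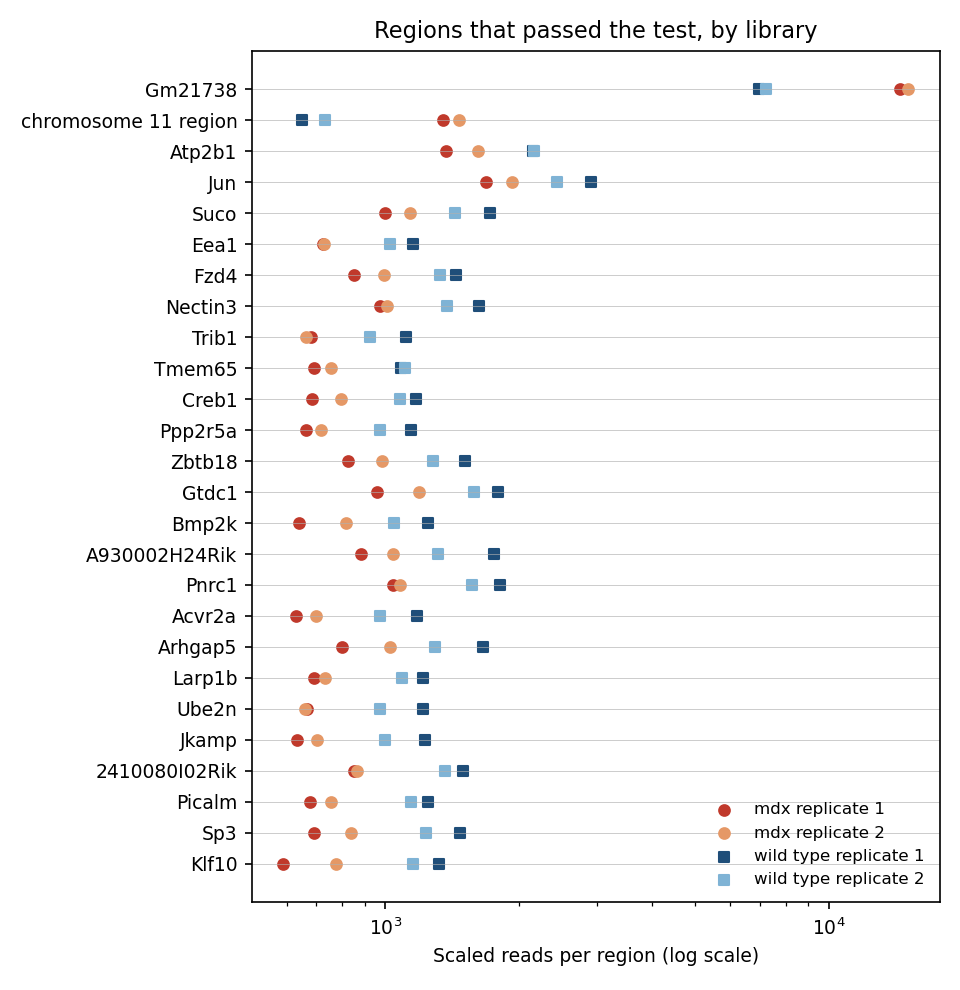
Scaled reads in each library (horizontal log axis) for the 26 members that passed the test, labelled by gene and ordered by fold change, one point per library, circles for mdx and squares for wild type. Gm21738 and the chromosome 11 region have both mdx libraries to the right, and the other 24 have both to the left.

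Among 15 coregulators and chromatin proteins 1 fell (6.67%, against 8% of all members), the promoter of Pnrc1, a nuclear receptor coactivator. It held 1041 and 1081 in mdx and 1818 and 1571 in wild type, a log2 ratio of -0.67 with SE 0.13 (limma, adjusted p = 0.021). The promoter of Eny2, a subunit of the SAGA histone-modifying complex, was in contrast even, with 1488 and 1411 against 1454 and 1459 (log2 ratio -0.01, SE 0.12). Ing2, Ing3 and Kat6b, which read or write histone marks, had log2 ratios of -0.55, -0.46 and -0.57 and did not pass.

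Receptors and signalling proteins made up 23 members, of which 5 fell (21.7%, against 8% of all members). Acvr2a, a receptor for activins and myostatin, held 629 and 699 in mdx and 1180 and 976 in wild type (log2 ratio -0.69, limma, adjusted p = 0.0292). Fzd4, a receptor for Wnt proteins, held 850 and 995 against 1443 and 1331 (-0.59, limma, adjusted p = 0.038). In each the mdx libraries were the lowest pair.

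The other 3 were Nectin3, a cell adhesion molecule, Ppp2r5a, a regulatory subunit of the phosphatase PP2A, and Trib1, a pseudokinase scaffold for ubiquitination. Their log2 ratios were -0.59, -0.62 and -0.60 (limma, adjusted p = 0.036, 0.0395 and 0.0469). Ppp2r1a, the scaffold subunit of the same phosphatase, did not differ beyond the spread, with 842 and 973 in mdx and 959 and 851 in wild type (log2 ratio 0.00, SE 0.15). Gsk3b, the kinase that inhibits beta-catenin and glycogen synthase, ranked 6 in level, with 1674 and 1719 against 2446 and 2038. It did not pass (log2 ratio -0.40, SE 0.13, limma, adjusted p = 0.0941), nor did Jag1, a Notch ligand (-0.39, limma, adjusted p = 0.111).

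Membrane traffic genes gave 14 members, of which 2 fell (14.3%, against 8% of all members). Picalm, a clathrin assembly protein, held 676 and 753 in mdx and 1251 and 1144 in wild type, a log2 ratio of -0.74 with SE 0.14 (limma, adjusted p = 0.0182). Eea1, a tether of early endosomes, held 723 and 727 against 1153 and 1025 (-0.58, limma, adjusted p = 0.0409). Rab5a, the GTPase that recruits Eea1, did not pass, with 684 and 963 against 965 and 910, and its groups overlapped.

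Ubiquitin and protein quality control gave 20 members, of which 1 fell (5%, against 8% of all members). Ube2n, which builds lysine-linked ubiquitin chains used in signalling, held 666 and 658 in mdx and 1220 and 972 in wild type (log2 ratio -0.72, SE 0.15, limma, adjusted p = 0.0266). Hspa8, the constitutive Hsp70 chaperone and the only member from a list of 23 heat shock genes, held 1110 and 1028 in mdx and 906 and 1033 in wild type. Its groups overlap and its log2 ratio was 0.14 (SE 0.14, limma, adjusted p = 0.582), but after cyclic loess it passed as higher (0.47), and with distal medians set equal it was -0.19. Of the wider Hsp70 family, gathered after the names had been seen, 4 of 10 genes were members, where 2.53% of all named genes were (not tested). Hspa2 (930 and 1068 against 1577 and 1282, -0.51), Hspa4l (-0.36) and Hspa13 (-0.26) had negative log2 ratios and did not pass. Herpud2, a relative of the stress protein Herpud1, held 1089 and 1010 against 1004 and 983, a difference of 0.08 with SE 0.14.

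Of the 17 metabolic enzymes and carriers 0 passed in either direction (limma), against 8.67% of all members. Of the 17, 6 had an unadjusted p under 0.05 (limma), all lower, as had 142 of the 300 members. Pdk4, which inhibits pyruvate dehydrogenase and favours fat as fuel, ranked 3 in level (chr6:5495900-5496984). It held 1899 and 2081 in mdx and 2698 and 2655 in wild type, without overlap, and just missed the threshold (log2 ratio -0.43, SE 0.12, limma, adjusted p = 0.0566). It did pass as lower with scaling by nuclear totals, with distal medians set equal, with voom on the recovered reads and on autosomes alone. It did not pass after cyclic loess (-0.0, limma, adjusted p = 0.988) or with promoter medians set equal (-0.23, limma, adjusted p = 0.141). Nor did it pass with no filter on low values, with a mean of at least 50 or with the replicate block. Mpc2, a subunit of the mitochondrial pyruvate carrier, held 1133 and 1310 against 1648 and 1632 (-0.43, limma, adjusted p = 0.0821).

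The remaining members that fell had no shared role. Atp2b1, a calcium pump of the plasma membrane, ranked 8 in level, with 1372 and 1619 in mdx and 2149 and 2164 in wild type (log2 ratio -0.53, limma, adjusted p = 0.039). It did not pass with no filter on low values (-0.53), with promoter medians set equal (-0.33) or after cyclic loess (-0.13). Arhgap5, a GTPase-activating protein, held 800 and 1028 against 1664 and 1295 (-0.69, limma, adjusted p = 0.0384).

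Larp1b, an RNA-binding protein, held 691 and 731 in mdx and 1219 and 1093 in wild type (log2 ratio -0.70, limma, adjusted p = 0.0226). Jkamp, a membrane protein tied to Jun kinase signalling, held 632 and 701 against 1230 and 1001 (-0.74, limma, adjusted p = 0.0244), and its region also holds the RefSeq start of L3hypdh. Bmp2k, a kinase induced by BMP2, held 638 and 818 against 1251 and 1048 (-0.66, limma, adjusted p = 0.0422). In all 3 both mdx libraries were below both wild type libraries.

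A promoter linked to the uncharacterised A930002H24Rik, which holds the RefSeq start of the tyrosine kinase Fer, had 884 and 1041 in mdx and 1759 and 1316 in wild type (log2 ratio -0.66, limma, adjusted p = 0.0398). The region of 2410080I02Rik, a long noncoding gene, had 849 and 866 against 1501 and 1364 (-0.74, limma, adjusted p = 0.0151). Gtdc1, Tmem65 and Suco completed the set, at -0.66, -0.60 and -0.56.

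Among promoters that did not pass, those highest in level had negative fold changes too. Dipk2a, second in level, held 2146 and 2714 in mdx and 3235 and 2909 in wild type (log2 ratio -0.35, SE 0.13). Sertad2, a transcriptional coregulator, held 1334 and 1774 against 2323 and 1818, Pja2, a ubiquitin ligase, 1260 and 1631 against 2293 and 1798, Rtn4, the neurite inhibitor Nogo, 1548 and 1492 against 1966 and 1791, and Pcmtd1 1400 and 1543 against 1923 and 1822. Their log2 ratios were -0.42, -0.50, -0.30 and -0.35, and in each the groups did not overlap. After cyclic loess the values of Dipk2a (0.09), Gsk3b (0.01), Sp4 (0.01), Rtn4 (0.09) and Pcmtd1 (0.04) turned slightly positive. Tmtc4, a mannosyltransferase of the endoplasmic reticulum, was the promoter up to 4 kb with the highest fold change, 1327 and 1462 in mdx and 1200 and 1255 in wild type (log2 ratio 0.18, limma, adjusted p = 0.434). It passed as higher after cyclic loess (0.54, limma, adjusted p = 0.00739).

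The 25 distal members up to 4 kb were of 2 kinds. In 9 the region holds a RefSeq gene start. In 6 of these the deposited annotation links a gene whose start lies farther off, and in 3 (Dcun1d4, Tmeff2 and a second Sertad2 region) it links none. All 9 had both mdx libraries below both wild type libraries, as had 77.7% of all members, with a median of -0.28. The highest was linked to B430305J03Rik and holds the start of Rap2b, a small GTPase. It had 1962 and 2022 in mdx and 2364 and 2335 in wild type, a log2 ratio of -0.24 with SE 0.11 (limma, adjusted p = 0.237), and 0.18 after cyclic loess. Dcun1d4, a factor of cullin neddylation, held 914 and 1114 against 1583 and 1236 (-0.47, limma, adjusted p = 0.105), and Nr3c2, the mineralocorticoid receptor, 925 and 957 against 1365 and 1170 (-0.43, limma, adjusted p = 0.098).

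The other 16 distal members hold no RefSeq start, and their median was -0.07, with 7 below and 4 above without overlap and 5 overlapping. Of all tested distal regions 16.8% lay below and 35.3% above without overlap, and of all members 77.7% and 4.67%. None of them passed. A region inside Trdn, the gene of triadin in the muscle calcium release complex, had the highest fold change, 1032 and 926 in mdx against 754 and 796 in wild type (log2 ratio 0.34, limma, adjusted p = 0.186). A region inside Ddc, which encodes aromatic amino acid decarboxylase, held 1095 and 1115 against 963 and 980 (0.19, limma, adjusted p = 0.439). Both passed as higher after cyclic loess (0.64 and 0.51). A region inside Sema6d, a semaphorin gene, lay on the other side, with 796 and 855 against 1110 and 897 (-0.27, limma, adjusted p = 0.305).

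The labelled cell type was checked at its marker genes, which lie below the members in level. From a list of 38 satellite cell identity genes 34 had a linked region and 0 reached the top 300, where 2.53% of all named genes did, the highest being Hey1, a Notch target, at rank 369. Of 10 defining markers 7 had a promoter region, whose values summed to 1221 and 1356 in mdx and 1845 and 1693 in wild type, led by the receptor Met at rank 1362. Met (265 and 352 against 627 and 542) and Calcr, the calcitonin receptor (170 and 178 against 346 and 254), were lower in both mdx libraries. So was Sdc4, by a narrow margin (182 and 170 against 183 and 222). At Pax7 (90, 103, 93 and 124), Myod1 (100, 157, 140 and 162) and Chrdl2 (11, 19, 29 and 18) the groups overlapped. They also overlapped at both promoter regions of Myf5 (214, 218, 241 and 189, and 189, 159, 186 and 182). Other promoter sums follow in the order mdx 1, mdx 2, wild type 1 and wild type 2. Fibro-adipogenic markers gave 396, 422, 317 and 308 (6 of 8 genes), and smooth muscle and pericyte markers 309, 249, 194 and 253 (3 of 5). Myofibre markers gave 184, 180, 68 and 104 (2 of 6), and the endothelial marker Tek 152, 131, 131 and 146 (1 of 6). The sums cover unequal numbers of genes, so their sizes cannot be compared between cell types and do not test the label. By mean value Tek (140.0) stood below Met (446.5), beside Myod1 (139.75) and above Pax7 (102.5). Haematopoietic and Schwann cell markers had 0 promoter regions in the table. The fibro-adipogenic and myofibre sums were higher in both mdx libraries, and their part in the fall of the member promoters was not tested. Within the fibro-adipogenic list Col1a1, Col1a2, Col3a1 and Osr1 were higher in both mdx libraries. Cd34 was lower in both (53, 72, 132 and 87), and at Dcn the groups overlapped (10, 12, 6 and 19).

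Lists of housekeeping functions are read against all 10668 named genes with a linked nuclear region, of which 270 (2.53%) are linked to a member. The counts are small, were not tested against that share and are given as a description. Ribosomal protein genes had 1 of 67 genes with a linked region among the members, Rpl37 (990 and 993 in mdx, 1421 and 1227 in wild type, log2 ratio -0.41, not passed). Lists of translation, RNA processing, oxidative phosphorylation and histone genes had 0 of 60, 121, 61 and 10. Chromatin genes had 1 of 76 (Hmgb2), cell cycle genes 2 of 91 (E2f3 and E2f5), ubiquitin and proteasome genes 4 of 175, of which Ube2n fell, and zinc finger genes 3 of 294, of which Zbtb18 fell. Of the 300 members, 192 were among the 300 highest of every library taken on its own.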

How the data were processed

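ATAC-seq libraries of quiescent satellite cells, 2 from mdx and 2 from wild type mice, were compared. The submitters' processing notes name MACS2 2.1.0, Picard 2.9.0, STAR 2.5.3a, Trimmomatic 0.33, DESeq2, DESeq and the build mm10. What each did, the Tn5 shift, duplicate handling and whether calling used pooled reads is not stated in these sources. The unit of the deposited values is a score. In mdx replicates 1 and 2 and wild type replicate 1, the authors' whole numbers skip those that factors of 1.382, 1.16194 and 1.22157 would skip. In these libraries 99.93% or more match whole reads, so the values are scaled, rounded reads. Wild type replicate 2 skips 0 numbers. Its factor of 0.492 was estimated from how often each number occurs, and under a factor below 1 every value matches whole reads. Dividing by these factors gave 3208487 and 3607633 reads in regions in mdx and 3693101 and 8165826 in wild type. By this estimate the last library is the deepest, but its count is approximate and rests on the estimated factor.

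Values were tested as log2(value + 1) with limma 3.58.1 in R 4.3.3 (intensity trend, group only) over all regions with at least 10 in at least 2 libraries, 33161 in all, with Benjamini-Hochberg adjustment and a threshold of 0.05. The procedure was tested on simulated data. No genome was used here, so the soft-masking condition of the repeat-like class was not applied. RefSeq tables (GRCm38.p6) gave gene starts, sequences and genes near unlinked regions.

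The members and gene lists were chosen with earlier results of these data known. Named by rule were the repeat-like members, the 10 highest promoters, the 5 highest distal members, up to 12 passing members per direction by fold change, members on the satellite identity, immediate early and heat shock lists, and 2 regions on either side of the limit. All other genes were named, and roles and families formed, after values were seen. Alternatives covered the scaling, filter, pseudocount, voom, trend, threshold, ranking, class limits, autosomes, leaving out each library and the replicate block.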

Additional observations from a re-analysis of the deposited data

How the results depend on the processing

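The 26 members that passed kept their sign in all alternatives. For groups that do not overlap this is fixed when a library is left out or the pseudocount is changed. Changes of the filter, trend, threshold, ranking, class limits, chromosomes or replicate block leave the log2 ratio of a member as it was. Under the alternative scalings a sign could have turned, and for these members it did not. Gm21738 and the chromosome 11 region passed in every setting that kept all libraries except without an intensity trend in the variance. The number of lower members moved most (24 as reported, 23 of them promoters). It was 5 (5 promoters) after cyclic loess, with 13 higher. With promoter medians set equal, 15 promoters were lower and 4 members higher. With distal medians set equal it was 147 (140 promoters), with no filter 9 (9), with a mean of at least 50 it was 53 (50), with voom on recovered reads 54 (52), on autosomes 44 (42), at an adjusted p under 0.1 it was 68 (64), and with ranking per kb 13 (12). Without an intensity trend 0 members passed in either direction (limma), 0 of them promoters, distal or repeat-like. Over all tested regions that fit gave 2 higher and 0 lower, so its 0 is not particular to the members. In the reported fit 142 members were lower and 5 higher at an unadjusted p under 0.05 (limma). Leaving out the 9 mitochondrial regions from the fit, an alternative chosen after seeing the data, gave 44 (42). Over all regions in each fit, lower calls numbered 292 as reported, 541 after cyclic loess, 159 with promoter medians equal and 3465 with distal medians equal. They numbered 121 with no filter, 725 with a mean of at least 50 and 444 with voom. On autosomes there were 353, and with mitochondrial regions left out 349. Whether members moved more than all regions was not tested. The cause of these moves was not tested, except that a filter or the regions in the fit change which regions set the variance trend and the adjustment.

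Distal members that passed, 2 as reported, were 5 after cyclic loess, 8 with distal medians equal, 1 with no filter, 4 with a mean of at least 50, 5 at an adjusted p under 0.1 and 1 with a promoter window of 2 kb. Counting regions wider than 4 kb with the repeat-like class, also chosen after seeing the data, left 1, and gave 2 repeat-like members that passed and a median of 0.59. The median log2 fold change of promoters, -0.30 over all 273, was 0.02 after cyclic loess, -0.11 with promoter medians equal and -0.64 with distal medians equal. That of distal members (-0.19) was 0.15, 0.01 and -0.52 in the same order, and -0.02 with ranking per kb. Gm21738 (1.06) was at 1.11 with nuclear totals, 1.57 after cyclic loess, 1.26 with promoter medians equal and 0.72 with distal medians equal. The members' share of nuclear signal, ranked per kb, was 7.71% in mdx and 8.70% in wild type.

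Signs turned after cyclic loess for Dipk2a (0.09), B430305J03Rik (0.18), Gsk3b (0.01), Sp4 (0.01), Rtn4 (0.09), Pcmtd1 (0.04), Nek1 (0.11) and the region near Gm39032 (0.23). With promoter medians equal they turned for Nek1 (0.01) and the Gm39032 region (0.13), with distal medians equal for Hspa8 (-0.19), and without wild type replicate 1 for the Gm39032 region (0.06). Leaving out each library in turn left 1 library in a group, taken to vary like the other group. Such a fit cannot decide whether a member passes, so only effect sizes are given. Gm21738 then ranged from 1.03 to 1.09.

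With the replicate block 35 members were lower, 34 of them promoters, and 3 higher. Over all tested regions it gave 653 lower and 2108 higher. Nothing shows that the numbers pair the libraries: deviations of same-numbered libraries correlated at r = -0.109 over 33161 regions. Crossing the numbers, chosen after seeing the data, gave 146 lower members (139 promoters) and 5 higher. Over all tested regions the crossed block gave 2067 lower and 3394 higher. Depth limits low regions most, and all members lie well above that range.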

Other observations

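The promoter of Cwc22 (chr2:77945816-77946661), which encodes a splicing factor that recruits the exon junction complex, was low in 1 library. It held 162 scaled reads in mdx replicate 1, against 945 in mdx replicate 2 and 1215 and 1222 in wild type, so each other library was at least 5.83 times higher. The log2 ratio was -1.63 with SE 0.53, the most negative of all members, and it did not pass (limma, adjusted p = 0.0944). Among 10373 nuclear regions with a mean over 100, it was the only region in which mdx replicate 1 was under 0.25 times each other library. The other libraries had 1, 2 and 0 such regions, none of them a member. Values of its neighbours follow in the order mdx 1, mdx 2, wild type 1 and wild type 2. The next listed region on one side, linked to Zfp385b, held 23, 41, 66 and 74. On the other side the nearest were at or near 0 in every library (0, 9, 0 and 9, then 0, 12, 5 and 18). Beyond them were regions with 119, 149, 89 and 130, with 221, 231, 204 and 228, with 69, 86, 117 and 124, and with 308, 273, 211 and 259. In mdx replicate 1 some of these neighbours were thus the lowest of the 4 libraries and others were not. The cause was not tested.

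Members were unevenly spread over chromosomes. Chromosome 1 held 38 (12.7% of members, against 7.28% of nuclear regions), chromosome 16 held 18 (6%, against 3.57%), chromosome 19 held 3 (1%, against 2.51%) and chromosome Y 0. Of the 270 promoters up to 4 kb, 54 (20%) hold RefSeq starts on both strands, such as those of Fzd4 and Tmem135 or Jkamp and L3hypdh, against 9.72% of 11225 other nuclear promoter regions. These shares are descriptions of regions chosen by their level and were not tested.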
